A study of Mus musculus with 12 samples.

Results

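The major urinary protein genes (Mup) of the mouse were followed in liver by 7 of their rows in a table of read counts: Mup1, Mup2, Mup3, Mup7, Mup9, Mup20 and Mup21. The members were taken by symbol from 24527 gene rows, and all 7 passed the filter on low counts, as did 13204 rows in all. The table held 21 Mup rows, of which 18 passed. The livers came from mice aged 39 weeks, offspring of CF1 females and B6SJL males. One set of mice was conceived naturally and the other by IVF (in vitro fertilization), where sperm and egg meet in a dish. Females and males of each mode gave 4 groups of 3 libraries each, made from polyadenylated RNA. The groups are called natural females, natural males, IVF females and IVF males. The labels name no transgene or drug. They do not say which animals shared a litter, and the titles of 1 IVF female (replicate 1) and 1 IVF male (replicate 2) share a number whose meaning is not given, so that p-values measure the spread between these 12 libraries.

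Major urinary proteins are small secreted lipocalins, barrel-shaped carriers of hydrophobic molecules. Mouse liver makes them in large amounts, they pass through the blood into urine, and there they bind and slowly release volatile pheromones. Their genes lie side by side in a cluster, and their liver expression is known to depend on the pulsed growth hormone pattern of males, acting through STAT5B, and on thyroid hormone and glucocorticoids.

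The GENCODE M21 annotation (GRCm38) places 22 Mup genes within 2194 kb of chromosome 4, from 59956804 to 62150863. The annotated transcript has 7 exons in 6 of the members and 6 in Mup21. In chromosomal order they are Mup7 (chr4:60066469-60070475), Mup2 (chr4:60135932-60154289), Mup9 (chr4:60418046-60421952), Mup1 (chr4:60498012-60501960), Mup20 (chr4:62050234-62054158), Mup3 (chr4:62083476-62087342) and Mup21 (chr4:62147932-62150863), all on the minus strand. Counts in the table are for whole genes, not for single exons or UTRs.

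How far the rows can be told apart depends on sequence, so the same 60 coding bases are shown for each member. They come from the GENCODE M21 transcripts, run 5′ to 3′ on the coding strand, and were placed by an alignment of the coding sequences. The stretch begins at coding base 127 in Mup1, Mup2, Mup7 and Mup9, at 130 in Mup20 and Mup21 and at 139 in Mup3. Capitals mark bases that differ from Mup1.
Mup1: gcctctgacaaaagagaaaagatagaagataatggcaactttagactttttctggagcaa
Mup2: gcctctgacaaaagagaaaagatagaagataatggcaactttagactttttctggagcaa
Mup9: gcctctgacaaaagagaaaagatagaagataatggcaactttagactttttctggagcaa
Mup7: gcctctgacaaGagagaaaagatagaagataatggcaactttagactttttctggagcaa
Mup20: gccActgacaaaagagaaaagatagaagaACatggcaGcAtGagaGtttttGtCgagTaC
Mup3: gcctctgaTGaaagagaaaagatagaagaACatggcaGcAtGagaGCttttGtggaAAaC
Mup21: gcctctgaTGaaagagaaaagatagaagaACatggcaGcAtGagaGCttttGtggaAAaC

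Mup1, Mup2 and Mup9 were identical over this stretch, and Mup7 differed at 1 base. Mup20 differed at 11 bases, and Mup3 and Mup21 at 13 each. Over the whole coding sequence, Mup1, Mup2, Mup7 and Mup9 shared 98.7% to 99.6% of aligned bases. Mup3 and Mup21 shared 96.3%, and Mup20 shared 88.5% to 91.5% with the other members. The stretches of 75 bases in each transcript were searched for in the GENCODE M21 transcripts of all other genes, on both strands. None was unique to Mup2, 8.32% were unique to Mup7, 9.50% to Mup1 and 11.3% to Mup9. The share was 56.4% for Mup20, 89.7% for Mup21 and 93.2% for Mup3. How reads that match several genes were counted is not given in the sources used here. Values of Mup1, Mup2, Mup7 and Mup9 are therefore uncertain as values of single genes, and those of Mup20, Mup3 and Mup21 less so. Gene naming adds to this, since 17 of the 21 Mup symbols in the table are also listed by RefSeq as a synonym of another Mup gene.

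Mup rows together took 9.66%, 14.1% and 9.74% of all counts in the natural male libraries and 7.29%, 11.3% and 15.1% in the IVF males. In natural females they took 3.40%, 3.28% and 0.939%, and in IVF females 2.61%, 1.29% and 1.75%. All 6 male libraries lay above all 6 female libraries. Group means were 11.2% ± 2.55 (SD, n = 3) in natural males, 11.2% ± 3.89 in IVF males, 2.54% ± 1.39 in natural females and 1.89% ± 0.669 in IVF females. The 95% Wilson interval of a share was narrow, for example 0.934% to 0.944% in the lowest library, and covers counting error only. Over both modes the males' mean exceeded the females' by 8.98 percentage points. Exchanging sex labels within each mode, a test added after the data were seen, gave an exact two-sided p of 0.005. That is the smallest that 400 exchanges can give, and it was 0.02 adjusted over 16 such tests.

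Library totals ranged from 6826534 to 27832271 counts. The lowest totals belonged to IVF female replicate 1 and natural female replicate 2, here called the shallow libraries, and values were also computed without both of them. A count of 0 allowed up to 0.439 CPM in the smallest library. CPM are counts scaled to the library total, here with TMM factors that correct it for composition. The summed level of 10 hepatocyte markers, among them albumin, was 90849 to 101870 CPM in IVF males, 107446 to 127872 in IVF females, 108584 to 115528 in natural males and 102938 to 119601 in natural females, and lay lowest in IVF males. Alb itself was lower in males without overlap in both modes, at log2 fold changes of -0.34 ± 0.24 in natural mice (edgeR adjusted p = 0.553) and -0.65 ± 0.24 in IVF mice (edgeR adjusted p = 0.230), which did not pass. The part of this in the Mup values was not tested. All 6 measured markers of lacrimal and salivary gland, other sites of Mup expression, were at 0 in every library. In bulk tissue, fewer cells of a type and less RNA per cell cannot be told apart.

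Mup20 encodes darcin, the pheromone protein of male urine that attracts females. In natural males it reached 4502, 6460 and 1886 CPM, and in IVF males 7863, 1671 and 10759 CPM. In natural females it was at 26.2, 61.6 and 26.3 CPM, and in IVF females at 55.1, 15.2 and 29.5 CPM. Male and female libraries did not overlap, and the highest value in each female group came from its shallow library. The log2 fold change of males over females was 6.82 ± 0.87 (SE) in natural mice and 7.68 ± 0.90 in IVF mice, with adjusted p-values of 0.00139 and 0.000764 by edgeR's quasi-likelihood test. Without the shallow libraries these values were 7.34 and 8.21.

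Mup21, the member at the distal end of the cluster, lay at 1335, 1565 and 842 CPM in natural males and at 1622, 859 and 1120 CPM in IVF males. In natural females it lay at 12.0, 14.0 and 9.56 CPM, and in IVF females at 16.2, 8.69 and 6.88 CPM. As for Mup20, the highest value in each female group came from its shallow library. The sexes lay far apart, and the lowest male library was far above the highest female library. The log2 fold change was 6.72 ± 0.45 in natural mice (edgeR adjusted p = 1.06e-05) and 6.85 ± 0.45 in IVF mice (edgeR adjusted p = 1.31e-05). Without the shallow libraries these values were 6.84 and 7.23.

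Mup7 belongs to the near-identical central genes by sequence, but its row differed between the sexes far more than theirs. It was at 11176, 27703 and 10051 CPM in natural males and at 9605, 7424 and 24906 CPM in IVF males. Natural females had 721, 136 and 129 CPM, and IVF females had 98.1, 134 and 246 CPM. The lowest male library was well above the highest female library. Log2 fold changes were 5.63 ± 0.87 in natural mice (edgeR adjusted p = 0.00661) and 6.45 ± 0.91 in IVF mice (edgeR adjusted p = 0.00276). The natural value was 6.95 without natural female replicate 1 and 5.01 without natural male replicate 2, and the IVF value was 5.74 without IVF male replicate 3.

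Mup3 neighbours Mup20 and Mup21 in the cluster and is closest to Mup21 in sequence, yet it was well expressed in females. Natural females had 2927, 2316 and 1727 CPM, and IVF females had 2029, 947 and 1366 CPM. Natural males had 7916, 8274 and 6500 CPM, and IVF males had 7678, 7919 and 7445 CPM. The sexes did not overlap. The log2 fold change was 1.70 ± 0.30 in natural mice (edgeR adjusted p = 0.0158) and 2.41 ± 0.31 in IVF mice (edgeR adjusted p = 0.00143). The natural call was lost without natural female replicate 2 (edgeR adjusted p = 0.0540) or natural male replicate 2 (edgeR adjusted p = 0.0553).

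Mup9, the largest of the central rows, had 23727, 30628 and 25383 CPM in natural males, and 8275, 34907 and 32539 CPM in IVF males. Natural females had 11721, 7648 and 1855 CPM, and IVF females had 5676, 3595 and 7024 CPM. The sexes did not overlap within either mode, but IVF male replicate 1 lay below natural female replicate 1. Mup1, a circulating protein linked in mice to glucose and lipid metabolism, followed a like order, with 12538, 14822 and 16426 CPM in natural males and 8191, 14271 and 14733 CPM in IVF males. Its female values were 4096, 5600 and 712 CPM after natural conception and 4713, 766 and 1762 CPM after IVF. The highest Mup1 value of each female group was that of the shallow library.

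Neither row passed edgeR's test. For Mup9 the log2 fold change of males over females was 1.91 ± 0.64 in natural mice (edgeR adjusted p = 0.180) and 2.22 ± 0.64 in IVF mice (edgeR adjusted p = 0.115). For Mup1 it was 2.07 ± 0.72 (edgeR adjusted p = 0.196) and 2.36 ± 0.72 (edgeR adjusted p = 0.139). DESeq2 called both rows in both modes, with adjusted p-values from 0.00720 to 0.0387. Mup9 was called in IVF mice by edgeR without natural female replicate 3, at 2.20 (adjusted p = 0.0492). Without the shallow libraries Mup1 was called in IVF mice by edgeR at 3.27 (adjusted p = 0.0428).

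Mup2, whose transcript holds no unique stretch of 75 bases, was the lowest of the central members. It had 270, 309 and 269 CPM in natural males, 116, 293 and 257 CPM in IVF males, 122, 124 and 10.6 CPM in natural females, and 113, 41.2 and 148 CPM in IVF females. The sexes overlapped in IVF mice. Its log2 fold changes, 1.72 ± 0.72 in natural mice (edgeR adjusted p = 0.288) and 1.14 ± 0.71 in IVF mice (edgeR adjusted p = 0.507), passed neither edgeR nor DESeq2.

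**Figure D1:**
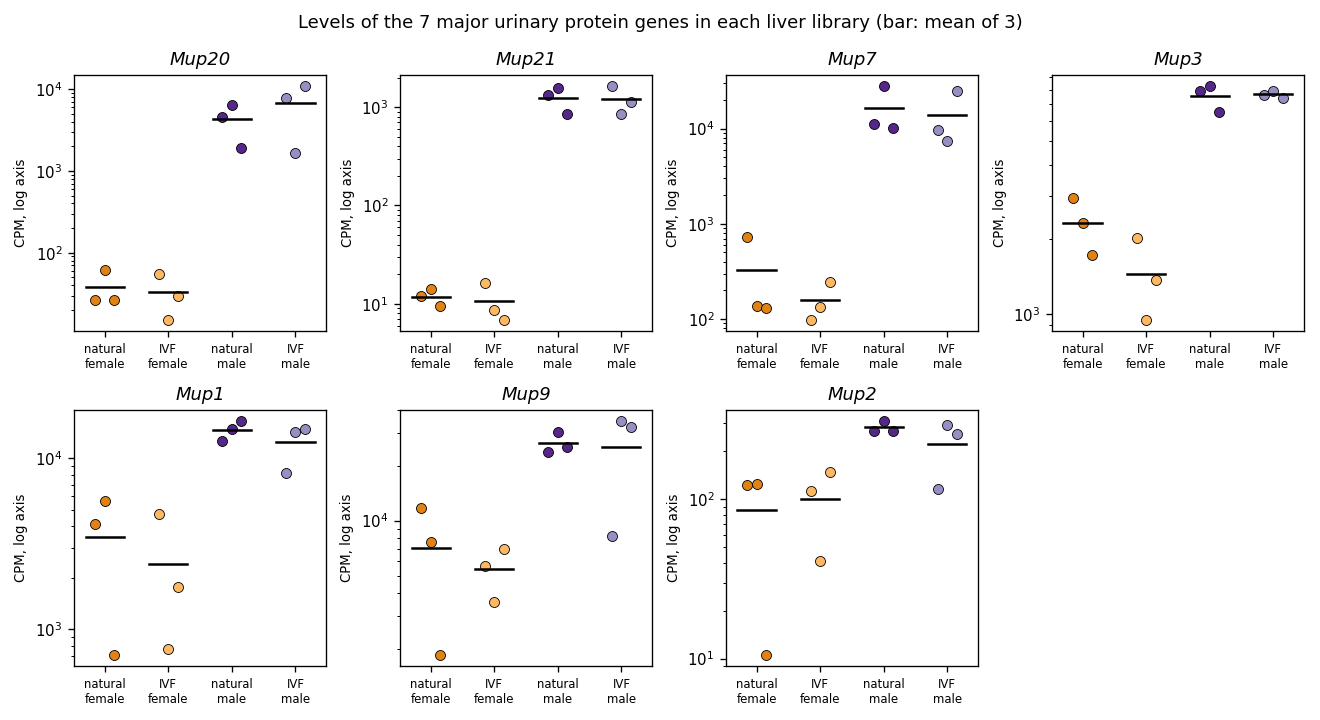
CPM of each of the 7 genes (log axis) in the 12 liver libraries, with 1 point per library and a bar at the mean of the 3 libraries in a group. For Mup20, Mup21 and Mup7 the lowest male library is more than 10 times the highest female library, whereas Mup1, Mup9 and Mup2 spread widely among females.

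Across the members, 4 of 7 were called higher in natural males and 4 of 7 in IVF males, and none was called lower. Among all tested genes 0.894% were called higher and 0.879% lower in natural males, and 0.909% and 1.28% in IVF males. DESeq2 called 6 of 7 in each mode, beside 2.78% of all genes in natural and 2.15% in IVF mice. Male and female libraries did not overlap for 7 of 7 members in natural mice and 6 of 7 in IVF mice, while 10.1% and 11.8% of all tested genes were higher in males without overlap. The median log2 fold change of the 7 members was 2.07 in natural and 2.41 in IVF mice, beside -0.024 and 0.0077 over all tested genes.

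Among the 18 tested Mup rows, 6 were called higher in males after natural conception and 9 after IVF. Mup12 and Mup15 were called in both modes beside Mup3, Mup7, Mup20 and Mup21. Mup15 had log2 fold changes of 2.95 ± 0.55 and 3.49 ± 0.56, and Mup12 2.42 ± 0.48 and 3.03 ± 0.49, in natural and IVF mice. Of the stretches of 75 bases, none was unique to Mup15 and 19.7% were unique to Mup12. These rows are therefore also uncertain as values of single genes. Mup5, Mup6 and Mup10 were called by edgeR in IVF mice, at 2.78, 2.40 and 1.80, and not in natural mice. DESeq2 called 12 of the 18 rows in each mode, the same 12 in both, which added Mup1, Mup9 and Mup14. In natural mice its adjusted p-values were 0.00790 for Mup5, 0.0419 for Mup6 and 0.0235 for Mup10. The interaction, which tests the difference between modes, called none of them by edgeR, with Mup5 alone at an unadjusted p under 0.05. Mup4, a member of the older divergent class known from nasal and glandular tissue, stayed at 0.343 to 2.96 CPM in the 12 libraries with log2 fold changes of 0.19 and -0.13.

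Mup13 differed most among libraries of the same group. It had 251, 9497 and 382 CPM in natural males, 852, 259 and 3609 CPM in IVF males, 46.8, 3365 and 31.1 CPM in natural females, and 3517, 2543 and 26.5 CPM in IVF females. No order by sex or mode can be read from these values. Mup11, a low row, was highest in the same male libraries as Mup13, with 14.3 CPM in natural male replicate 2 and 15.1 CPM in IVF male replicate 3. This was not particular to these rows. The same libraries were highest in their groups for Mup7, Mup14, Mup20 and all Mup rows added (165253 and 164038 CPM). For Mup1, Mup3 and Mup9 this did not hold in both groups. Mup16, Mup18 and Mup19 had at most 5 counts in any library and were not tested.

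**Figure D2:**
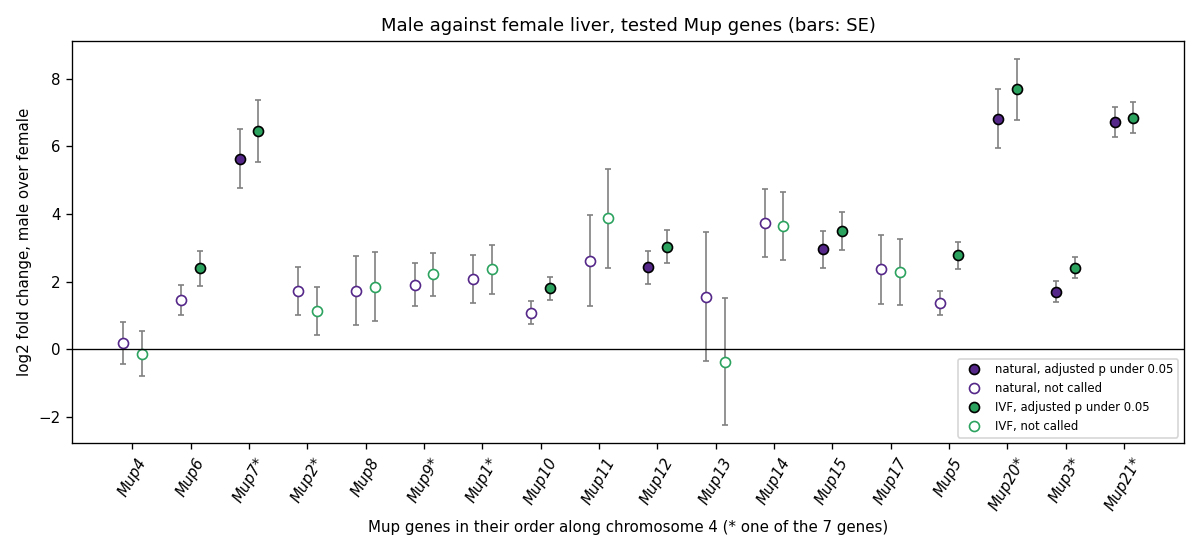
Log2 fold change of males over females with its SE for the 18 tested Mup rows in chromosomal order, in natural and IVF mice. Filled points passed an adjusted p of 0.05. Mup7, Mup20 and Mup21 exceed a log2 fold change of 5 in both modes, and the other rows lie below 4.

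All Mup counts added into 1 row do not depend on how the counted reads were divided among Mup rows, while reads that were not counted stay missing. The sum was higher in males by a log2 fold change of 2.41 ± 0.55 in natural mice (edgeR adjusted p = 0.0511), which missed the threshold, and by 2.68 ± 0.55 in IVF mice (edgeR adjusted p = 0.0278), which passed. The natural value passed in 5 of 21 alternatives: library size alone, no filter, DESeq2, voom, and without IVF female replicate 1. It missed in the others, with edgeR adjusted p-values up to 0.148. The IVF value was lost when any of IVF female replicates 2 and 3 or IVF male replicates 2 and 3 was left out, with adjusted p-values from 0.0680 to 0.115. Gm2083, a symbol that RefSeq lists as a synonym of Mup13, had 4952 to 14932 CPM in males and 1158 to 4116 CPM in females and is not in the sum. With it added, an alternative chosen after the data were seen, the sum was higher by 2.34 in natural mice (edgeR adjusted p = 0.0534) and by 2.61 in IVF mice (edgeR adjusted p = 0.0282).

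Each member's share of a library's Mup counts needs no scaling between libraries. Mup7 made up 12.2% ± 3.99 (SD, n = 3) of Mup counts in natural males and 11.7% ± 4.74 in IVF males, against 1.45% ± 0.930 in natural females and 0.371% to 1.49% in IVF females. Mup20 made up 3.29% ± 1.34 and 6.40% ± 4.90 in males and 0.205% ± 0.128 and 0.172% ± 0.0397 in females. Mup21 made up 0.994% ± 0.235 and 1.24% ± 0.928 in males and 0.0682% ± 0.0475 and 0.0590% ± 0.0164 in females. The male and female libraries did not overlap for these 3 shares.

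Mup9 was the largest listed share in each group, with 21.5% ± 2.65 in natural males, 11.8% to 29.8% in IVF males, and 28.2% ± 7.30 and 31.5% ± 10.5 in natural and IVF females. With 3 libraries against 3 an exact permutation test cannot give less than 0.1, and no share passed in a single mode (smallest adjusted p = 0.35 over 28 tests). With sex labels exchanged within both modes together, a test added after the data were seen, Mup7, Mup20 and Mup21 each gave an exact p of 0.005 (0.02 adjusted over 16 tests). The male excess was 10.7 percentage points for Mup7, 4.66 for Mup20 and 1.06 for Mup21. Mup9 was lower in males by -8.89 percentage points (exact p = 0.055, adjusted 0.147) and Mup2 by -0.22 (exact p = 0.03, adjusted 0.096), and neither passed.

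**Figure D3:**
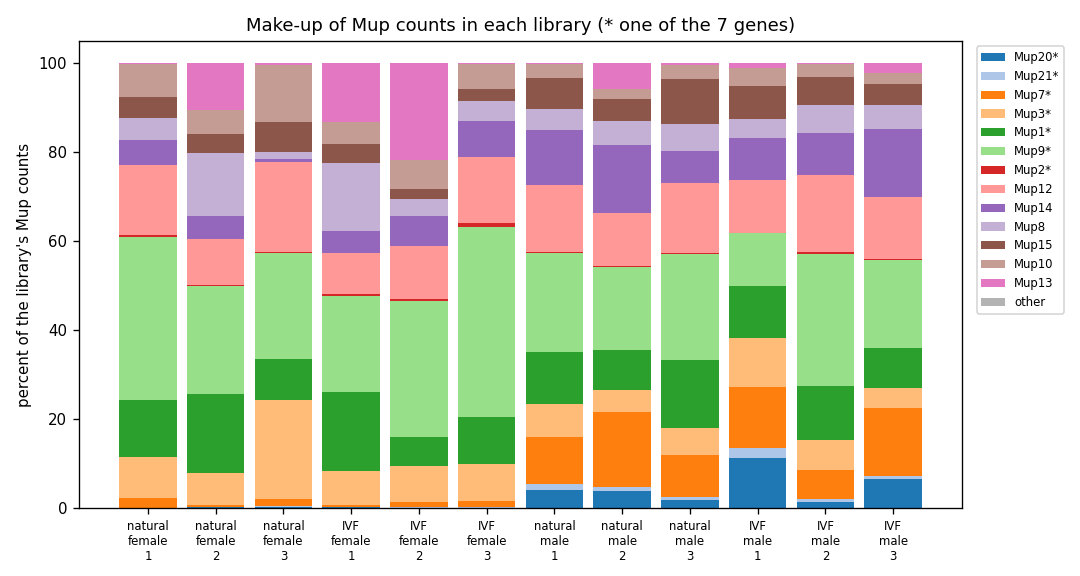
Percent of each library's Mup counts taken by the 7 members and the 6 next largest rows, stacked, for the 12 libraries. Mup7, Mup20 and Mup21 each take a larger part of every male bar than of any female bar. Mup21 stays small, at 0.683% to 2.31% of the male bars, and Mup7 reaches 2.25% in a female bar. Mup9 takes 11.8% to 42.4% of the Mup counts of every library.

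Levels of different members were compared per length, as CPM per kb of the annotated transcript. In natural males the order of mean levels was Mup9 at 30763 ± 4170 (SD, n = 3), Mup7 at 17594 ± 10661, Mup1 at 15745 ± 2108, Mup3 at 7686 ± 954, Mup20 at 4615 ± 2473, Mup21 at 1843 ± 546 and Mup2 at 305 ± 24.5. Mup7 and Mup1 did not differ beyond their spread. Library ranges also overlapped for Mup9 (from 27462) and Mup7 (up to 29885), and for Mup3 (from 6605) and Mup20 (up to 6961). The same held for Mup20 (from 2032) and Mup21 (up to 2312). In natural females the order began with Mup9 at 8188 ± 5739, Mup1 at 3742 ± 2701 and Mup3 at 2361 ± 609, which overlapped. Mup7 at 355 ± 367, Mup2 at 92.5 ± 70.2, Mup20 at 41.0 ± 22.0 and Mup21 at 17.5 ± 3.30 followed. The central rows carry the uncertainty of their shared sequence.

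Spread within groups separated the members too. The pooled SD of log2 CPM was 0.35 for Mup3 and 0.48 for Mup21, beside a median of 0.31 over 7366 genes with at least 10 CPM, at percentiles of 57.6 and 76.9. It was 0.95 for Mup9, 0.99 for Mup7, 1.03 for Mup20, 1.07 for Mup1 and 1.19 for Mup2, at percentiles from 97.6 to 99.0 of those genes. Among the other rows Mup13 stood at 3.22.

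IVF was compared with natural conception within each sex. No member passed the test for IVF against natural conception in either sex. In females the log2 fold changes ran from -1.04 ± 0.72 for Mup7 to 0.24 ± 0.70 for Mup2. In males they ran from -0.35 ± 0.70 for Mup2 to 0.66 ± 0.68 for Mup20. Of all tested genes edgeR called 0% higher and 0% lower in IVF females, and 0.00757% higher and 0% lower in IVF males. At an unadjusted p under 0.05 edgeR had 1 of 7 members in females and 0 of 7 in males, beside 3.70% and 2.69% of all genes, and DESeq2 called 0 members in both. The intervals were wide, and for Mup20 in males the 95% interval ran from -0.90 to 2.22.

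Mup3 had the smallest unadjusted p among the 7 members in IVF females, at a log2 fold change of -0.68 ± 0.30 (edgeR's quasi-likelihood test, adjusted p = 1, unadjusted 0.0402). Its IVF and natural female libraries overlapped. In males its change was 0.022 ± 0.29. Mup5, a low row, had 0.594, 0.291 and 0.898 CPM in IVF females and 1.97, 2.16 and 1.74 CPM in natural females, without overlap, as did 3.87% of all tested genes. Its log2 fold change was -1.70 ± 0.41 (edgeR's quasi-likelihood test, adjusted p = 1, unadjusted 0.00132), on 4 to 21 counts in the IVF libraries. The Mup sum changed by -0.39 ± 0.52 in females and -0.11 ± 0.52 in males (edgeR adjusted p = 1 for both).

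The change with IVF in males, less the change in females, was tested as an interaction. It was called by edgeR for none of the 7 members, as for 0% of all genes in either direction, with 0 of 7 at an unadjusted p under 0.05 (3.87% of all genes) and 0 called by DESeq2. It ran from -0.59 ± 0.99 for Mup2 to 0.86 ± 0.96 for Mup20, and was 0.28 ± 0.73 for the sum. No share of a member in Mup counts passed a test by mode. With mode labels exchanged within both sexes, also added after the data were seen, the smallest exact p was 0.465. That test averages the sexes, so opposite shifts partly cancel, as for Mup3 at -4.89 percentage points in females and 1.26 in males. Within a single sex the smallest exact permutation p was 0.2, for Mup2 in males. Such a test cannot give less than 0.1, so it could not show a difference.

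**Figure D4:**
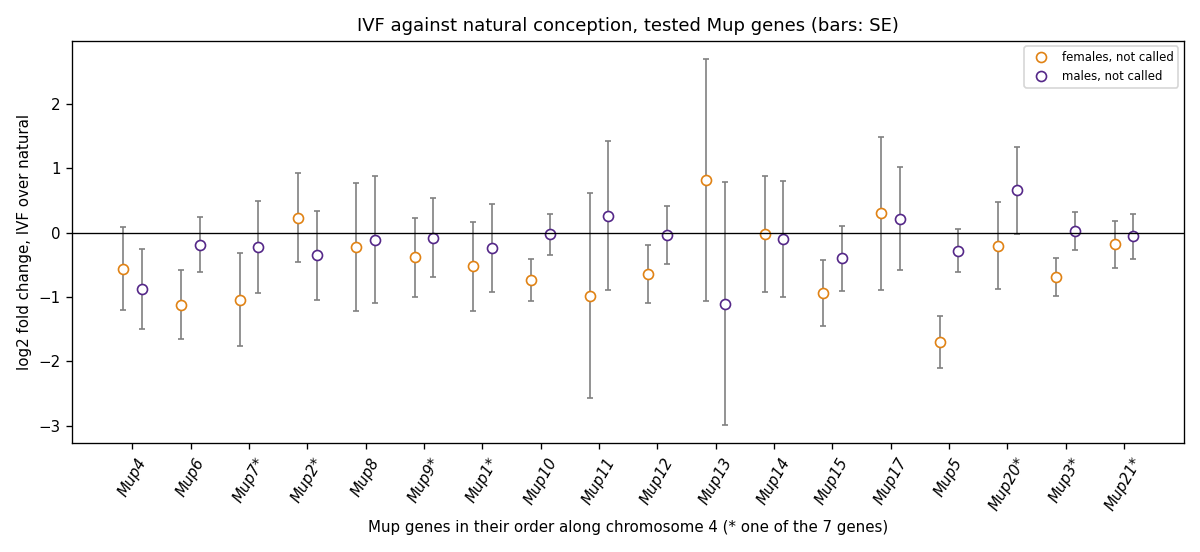
Log2 fold change of IVF over natural conception with its SE for the 18 tested Mup rows, in females and in males. No point passed an adjusted p of 0.05. Mup5 in females, at -1.70, is the lowest point.

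Growth hormone signalling and other known regulators were read from a list of 25 genes, all tested. EdgeR called none higher in males, and 2 in natural and 3 in IVF mice lower, with 9 and 6 at an unadjusted p under 0.05 in either direction. That unadjusted threshold was passed by 14.9% of all genes in each mode. The list's median log2 fold change was -0.25 in natural and -0.17 in IVF mice. Cux2, a female-specific transcription factor of the growth hormone response, had 19.9 ± 17.1 CPM in natural females and 0.182 ± 0.0570 in natural males, a log2 fold change of -6.75 ± 0.86 (edgeR adjusted p = 0.00139). In IVF mice it was -6.75 ± 0.85 (edgeR adjusted p = 0.00119). Prlr, the prolactin receptor, was lower in males by -2.51 ± 0.26 in natural mice (edgeR adjusted p = 0.000319) and by -2.25 ± 0.26 in IVF mice (edgeR adjusted p = 0.000694).

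Esr1, an estrogen receptor, was called in IVF mice at -2.35 ± 0.23 (edgeR adjusted p = 0.000175) and was not called in natural mice at -0.62 ± 0.22 (edgeR adjusted p = 0.206). The difference between the modes, -1.73 ± 0.31, did not pass (edgeR adjusted p = 0.878). Bcl6, a male-biased repressor of female-biased genes, had mean levels of 49.3 ± 21.8 CPM in natural males and 13.0 ± 6.70 in natural females, and 43.4 ± 37.3 and 9.90 ± 1.75 after IVF. Its log2 fold changes of 1.91 ± 0.59 and 2.13 ± 0.60 did not pass (edgeR adjusted p = 0.145 and 0.102). The growth hormone receptor Ghr (0.56 and 0.29), the signal transducer Stat5b (-0.41 and -0.21), the repressor Zhx2 (0.21 and 0.41) and the glucocorticoid receptor Nr3c1 (-0.14 and -0.17) were not called in natural or IVF mice. IVF changed none of the 25 genes past edgeR's threshold in either sex. In each sex 1 gene was at an unadjusted p under 0.05, beside 3.70% of all genes in females and 2.69% in males. That gene was Esr1 in both, at 1.03 ± 0.22 in females and -0.70 ± 0.22 in males (edgeR adjusted p = 1 for both).

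Among other lipocalins and fatty acid binding relatives, 1 of 14 tested genes was called higher in males in each mode. Of all tested genes 0.894% were called higher in natural and 0.909% in IVF males. The called relative was Obp2a, an odorant-binding lipocalin. Its mean levels were 8.30 ± 6.97 CPM in natural males and 10.0 ± 6.90 CPM in IVF males, and 0 and 0.0142 CPM in the females. It passed the filter on low counts only through the males. Of 24 tested genes of a list of male-biased liver genes, 12 were called higher in natural and 13 in IVF males. The median log2 fold change was 2.86 and 2.83. The list was drawn up with the sex bias known, so its direction is no independent evidence. Cyp4a12b, C6 (a complement component), Cyp7b1 (an oxysterol hydroxylase) and Cyp4a12a had the smallest p-values. In natural mice Cyp4a12b averaged 191 ± 49.3 CPM in males and 0.107 ± 0.101 in females, and Cyp4a12a 674 ± 123 and 0.561 ± 0.543. C6 and Cyp7b1 were higher by log2 fold changes of 4.17 ± 0.29 and 3.83 ± 0.34. Of the 5 tested genes that flank the cluster, edgeR called none by sex. At an unadjusted p under 0.05 it had 1 in natural and 0 in IVF mice, beside 14.9% of all genes in each mode.

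Genes whose log2 CPM followed the Mup sum most closely over the 12 libraries were Serpina4-ps1 (r = 0.95), Cyp4a12a (0.94), Tcaim (0.93), Timm9 (0.93) and Dpy19l1 (0.93). These values include the difference between the sexes. After group means were removed, Acsm1 (r = 0.97), Rfc1 (0.97), Eif3l (0.95), Vps41 (0.94) and Coq5 (0.94) were closest. For Mup20 they were C6 (0.98), Cyp4a12b (0.97) and Eif2s3y (0.97) with sex, and Odc1 (0.91), Zfp955b (0.91) and Nop16 (0.90) without group means. They are the top of 7349 ranked genes and are given as description.

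Markers of other liver cells were read beside the Mup values. Summed over 8 Kupffer cell markers the level was 167 to 250 CPM in IVF males and 344 to 508 CPM in IVF females, and 309 to 343 and 332 to 437 CPM in natural males and females. Of the 8 markers 2 were called lower in IVF males against IVF females, beside 1.28% of all tested genes. They were Vsig4 at -1.81 ± 0.27 (edgeR adjusted p = 0.00390) and Clec4f at -1.05 ± 0.21 (edgeR adjusted p = 0.0215). In natural mice 0 were called. At an unadjusted p under 0.05 edgeR had 7 of 8 in IVF and 2 of 8 in natural mice, beside 14.9% of all genes in each mode. For the difference between the modes edgeR called 0 of the 8, with 4 of 8 at an unadjusted p under 0.05, beside 3.87% of all genes.

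Summed over 8 sinusoidal endothelial markers the level was 221 to 244 CPM in IVF males and 299 to 349 in IVF females, and 237 to 280 and 262 to 336 CPM in natural males and females. Summed over 8 stellate cell markers it was 190 to 267 and 313 to 360 CPM in IVF males and females, and 206 to 279 and 263 to 307 CPM in natural males and females. The IVF sexes did not overlap in either sum and the natural sexes did. EdgeR called 0 of 8 markers by sex in each list and mode. At an unadjusted p under 0.05 it had 4 endothelial and 3 stellate markers in IVF mice and 0 and 2 in natural mice. Of all genes 14.9% were under it in each mode. The lymphocyte sum was separated in natural mice instead, at 0.731 to 1.23 CPM in males and 3.00 to 3.65 CPM in females. It overlapped between the IVF sexes. EdgeR called 0 of 5 tested lymphocyte markers in each mode, with 4 in natural and 1 in IVF mice at an unadjusted p under 0.05. The sum of the adipose list was higher in males without overlap in both modes. Most of it was Car3, at means of 5478 CPM in natural males and 1531 CPM in natural females. The part of these markers in the Mup values was not tested.

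Sequence around the start sites was examined in RefSeq's promoter windows (GRCm38.p6), which run from 250 bases before to 50 after the RefSeq start. They covered 14 of the 22 Mup genes, among them Mup2, Mup3, Mup7, Mup9 and Mup21. By sex, Mup3 and Mup21 were called by edgeR in both modes, and Mup9 by DESeq2 and not by edgeR. The log2 fold changes of Mup9, 1.91 in natural and 2.22 in IVF mice, were near the 1.70 and 2.41 of Mup3. The stretches below come from Mup9 (chr4:60421976-60422178), Mup3 (chr4:62087321-62087523) and Mup21 (chr4:62150842-62151044), all on the minus strand. They run 5′ to 3′ and end after the TATA motif, which for Mup3 and Mup21 lies inside the GENCODE M21 transcript, since its start is upstream of RefSeq's. Capitals mark the TATA box letters TATATAA and the letters ATCAAT, a core of the ONECUT1 (HNF6) site. Both were searched on both strands.
Mup9: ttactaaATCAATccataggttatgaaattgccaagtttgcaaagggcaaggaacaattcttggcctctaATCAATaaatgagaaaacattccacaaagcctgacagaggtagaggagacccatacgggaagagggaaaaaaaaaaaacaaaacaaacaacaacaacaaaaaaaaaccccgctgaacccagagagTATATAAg
Mup3: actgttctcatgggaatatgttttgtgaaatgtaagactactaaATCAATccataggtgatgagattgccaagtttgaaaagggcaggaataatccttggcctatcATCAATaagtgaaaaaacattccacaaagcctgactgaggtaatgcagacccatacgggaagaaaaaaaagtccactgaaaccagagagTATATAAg
Mup21: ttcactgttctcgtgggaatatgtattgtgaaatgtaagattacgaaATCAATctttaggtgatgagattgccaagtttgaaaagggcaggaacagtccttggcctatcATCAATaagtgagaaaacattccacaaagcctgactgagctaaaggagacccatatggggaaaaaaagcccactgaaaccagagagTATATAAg

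ATCAAT was present in 14 of 14 Mup windows, against 7.54% of 32851 windows of all genes. TATATAA was present in 13 of 14, against 3.24%, and was not found in the Mup7 window. In the 13 it lay 86 to 126 bases after the last ATCAAT, while the Mup7 window ends 68 bases after it and so does not reach the matching place. TTCNNNGAA, the letters of a STAT5 site, was in 0 of 14, against 8.30%. AGAACA, a steroid receptor half-site, was in 2 of 14, Mup3 and Mup21, against 19%. Mup genes are copies of one another, so that their windows are not independent. A match is a description of these letters, not of binding.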

How the data were processed

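Polyadenylated RNA of 12 mouse livers was sequenced. The authors deposited 1 table of whole-number counts per gene symbol. Per the submitters' processing notes, Trimmomatic 0.32, STAR 2.3.0e, featureCounts 1.5.0 and mm10 were named. The annotation, strandedness and handling of multi-mapping reads are not given in the sources used here. The table held 0 rows that name no gene.

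Counts were fitted with edgeR 4.0.16 (R 4.3.3) by the quasi-likelihood test, with filterByExpr by group, TMM scaling and 4 group means over all 12 libraries. P-values were Benjamini-Hochberg adjusted over 13204 genes, and a gene was called at an adjusted p-value under 0.05. SEs were derived from the fold change and its F statistic, and 95% intervals use 8 residual degrees of freedom. Shares of Mup counts were compared by exact permutation with scipy 1.17.1. Alternatives were DESeq2 1.42.0, limma 3.58.1 (voom), other scalings and filters, fits restricted to the libraries compared, and omission of libraries. The code was tested on simulated counts. Named genes follow lists of regulators, relatives, male-biased genes and neighbours, with the smallest p-values shown. The values of 1 listed regulator are not reported here. The members and lists were chosen with earlier results of these data known. Replicate numbers follow accession order and pair no samples. Sequences are from GENCODE M21 and RefSeq (GRCm38.p6).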

Additional observations from a re-analysis of the deposited data

How the results depend on the processing

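No paired analysis was possible because replicate numbers only follow accession order and the titles of the groups share at most 1 number. For the 7 members against sex, 272 of 280 alternative values kept direction and side of the threshold, 2 lost and 6 gained the call, and none changed sign. The count called stayed between 3 and 6 of 7. The Mup sum in natural mice (2.41) passed with library size alone (2.14), no filter (2.43), DESeq2 (2.41) and voom (2.63). It missed in most of the 21 alternatives (edgeR adjusted p up to 0.148) and ran from 1.997 to 2.69 when 1 library was left out. In IVF mice (2.68) that range was 2.36 to 3.02. For IVF against natural, small values changed sign while none passed. With library size alone, where the median of all genes in males was 0.14 instead of 0.0098, male values became 0.031 for Mup9, 0.10 for Mup21 and 0.0068 for the sum. With voom the interaction of Mup9 was -0.27. Leaving out 1 library gave, in females, -1.43 to 0.0023 for Mup1, -0.27 to 0.61 for Mup2, -1.50 to 0.27 for Mup7, -0.82 to 0.20 for Mup9, -0.74 to 0.33 for Mup20 and -0.57 to 0.054 for Mup21. In males it gave -0.078 to 0.084 for Mup3, -0.94 to 0.39 for Mup7, -0.38 to 0.34 for Mup9, -0.34 to 0.13 for Mup21 and -0.43 to 0.15 for the sum. For the interaction it gave -0.24 to 1.19 for Mup1, -0.50 to 1.43 for Mup7, -0.27 to 0.74 for Mup9, -0.15 to 0.51 for Mup21 and -0.047 to 0.67 for the sum. The cause was not tested. That scaling moved the median for sex by -0.31 in natural and -0.11 in IVF mice. For sex differences in shares, alternatives were shares of the listed members alone and omission of 1 library. Of these 98 values 8 moved by at least the pooled SD of the groups. With 1 library left out, Mup1 ran from -3.23 to 1.03 percentage points in natural mice (-1.20 with all libraries). In IVF mice Mup1 ran from -3.28 to 2.36 (-0.72 with all) and Mup3 from -2.35 to 0.86 (-0.58 with all), so these signs were not stable. Shared sequence limits values of the central rows, and low counts limit Mup5 in IVF females.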
